A study of Mus musculus with 6 samples.

Results

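The BCL2 family regulators of apoptosis were described across 6 expression arrays of NIH3T3 cells, a mouse embryonic fibroblast line. The family was taken as 10 listed genes, Mcl1, Bcl2, Bcl2l1, Bcl2l11, Bmf, Bbc3, Pmaip1, Bax, Bak1 and Bid, and their values were those of the probe sets annotated to each. Of the 10 genes, 9 were paired with a probe set, which gave 30 of the 45101 probe sets on the array, while Bax was paired with none and is not analysed here. Of the 9, 8 reached the level at which genes were tested (an intensity of 39.2, averaged over the arrays on the log scale), among 10916 genes tested of 18194 named. Pmaip1 lay below that level.

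RNA was taken from cells with wild-type LPAR1, a receptor on the cell surface that binds lysophosphatidic acid and signals through G proteins, and from cells with mutant LPAR1, at 0, 60 and 120 minutes, with 1 array for each genotype and time. The mutation, the stimulus given at 0 minutes and the number of cultures or clones are not stated in the sources used here. The p-values below therefore rest on a fit with additive genotype and time. They set each time or genotype difference against the departures of these arrays from that fit, which may be technical. A true difference between the genotypes in their time course counts as spread in that fit. An effect of the mutation cannot be told apart from a difference in how the cells were derived.

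Apoptosis through mitochondria is set by 3 groups of BCL2 proteins. The anti-apoptotic members (Mcl1, Bcl2 and Bcl2l1, which encodes BCL-XL) bind and hold their pro-apoptotic relatives. The BH3-only members sense stress or loss of growth signals and bind the anti-apoptotic proteins, and some also activate the effectors: Bcl2l11 encodes BIM, Bbc3 PUMA, Pmaip1 NOXA, and Bmf and Bid the proteins of those names. The effectors Bak1 and Bax form pores in the outer mitochondrial membrane and release cytochrome c. In fibroblasts, growth factors and serum are known to sustain MCL1, a protein with a short life, and to hold down BIM and PUMA, whose genes are targets of the FOXO transcription factors.

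Median intensity per array lay between 34.1 and 37.3, and the number of arrays limits the precision of every value. All 9 fibroblast markers were above the filter level with a summed intensity of 63380 to 66920 per array, none of 4 leukocyte markers was, and 2 of 4 epithelial (Epcam and Cdh1) and 1 of 3 endothelial markers (Cdh5) were, with sums of 307 to 400 and 45.5 to 97.8. Some of these markers differed by genotype. Cdh5 read 22.4 to 27.4 on the wild-type arrays, all below the filter level, and 61.4 to 64.6 on the mutant arrays. It thus passed the filter through the mutant arrays only. The collagen gene Col1a1 read 3059 to 3520 on the wild-type and 2334 to 2411 on the mutant arrays. Another collagen gene, Col3a1, went the other way, at 8111 to 8531 on the wild-type and 9361 to 9500 on the mutant arrays. Signal at the 5' end of Actb relative to its 3' end, which falls as RNA degrades or labelling shortens, was 0.505 (mutant) and 0.579 (wild-type) at 0 minutes and 0.650 to 0.699 at the later times. The part of RNA quality in the differences from 0 minutes was not tested, and the comparison of 120 with 60 minutes lies within the later, narrower range. Over 0, 60 and 120 minutes Lpar1 read 1335, 1290 and 1289 in the wild-type arrays and 1496, 1514 and 1438 in the mutant ones, a log2 difference of 0.18 ± 0.045 (SE; limma adjusted p = 0.0208).

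Over the first hour, the anti-apoptotic genes Mcl1 and Bcl2l1 rose and the BH3-only genes Bmf, Bcl2l11, Bbc3 and Bid fell, while Bcl2 and Bak1 did not pass the test. That is 6 of 8 tested members, 2 higher and 4 lower, where 7.34% of all genes tested were higher and 10.7% lower (18% in either direction). At 120 minutes all 8 differed from 0 minutes, 3 higher (Mcl1, Bcl2l1 and Bak1) and 5 lower (Bmf, Bcl2l11, Bbc3, Bid and Bcl2), against 16.2% higher and 30.8% lower among all genes, or 47% in all. The background of that comparison is thus high. The median size of the log2 difference was 0.42 for the members and 0.12 for all genes at 60 minutes, and 0.54 and 0.20 at 120 minutes. Both comparisons share the 0 minute arrays and are not separate evidence. In RNA from whole cultures, fewer cells of a kind and less RNA per cell cannot be told apart.

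From 60 to 120 minutes 5 of the 8 fell (Mcl1, Bcl2, Bcl2l11, Bmf and Bbc3) and none rose, where 15% of all genes were lower and 10.2% higher (25.1% in all). The differences had the same sign in both genotypes for 8 of 8 members at 60 and at 120 minutes against 0, and for 7 of 8, all but Bid, at 120 against 60. The share of all genes with the same sign was not counted. Over all genes tested, deviations from each genotype's mean correlated between genotypes at 0.756 to 0.911 for arrays of the same time. The 60 minute count was 2 (Mcl1 and Bmf) when the genotype term was left out of the fit, where 590 of all 10916 genes passed. The 120 minute count was 5 (Mcl1, Bcl2l11, Bmf, Bbc3 and Bid) when all probe sets of a gene were averaged, where 4546 of 10916 passed.

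**Figure D1:**
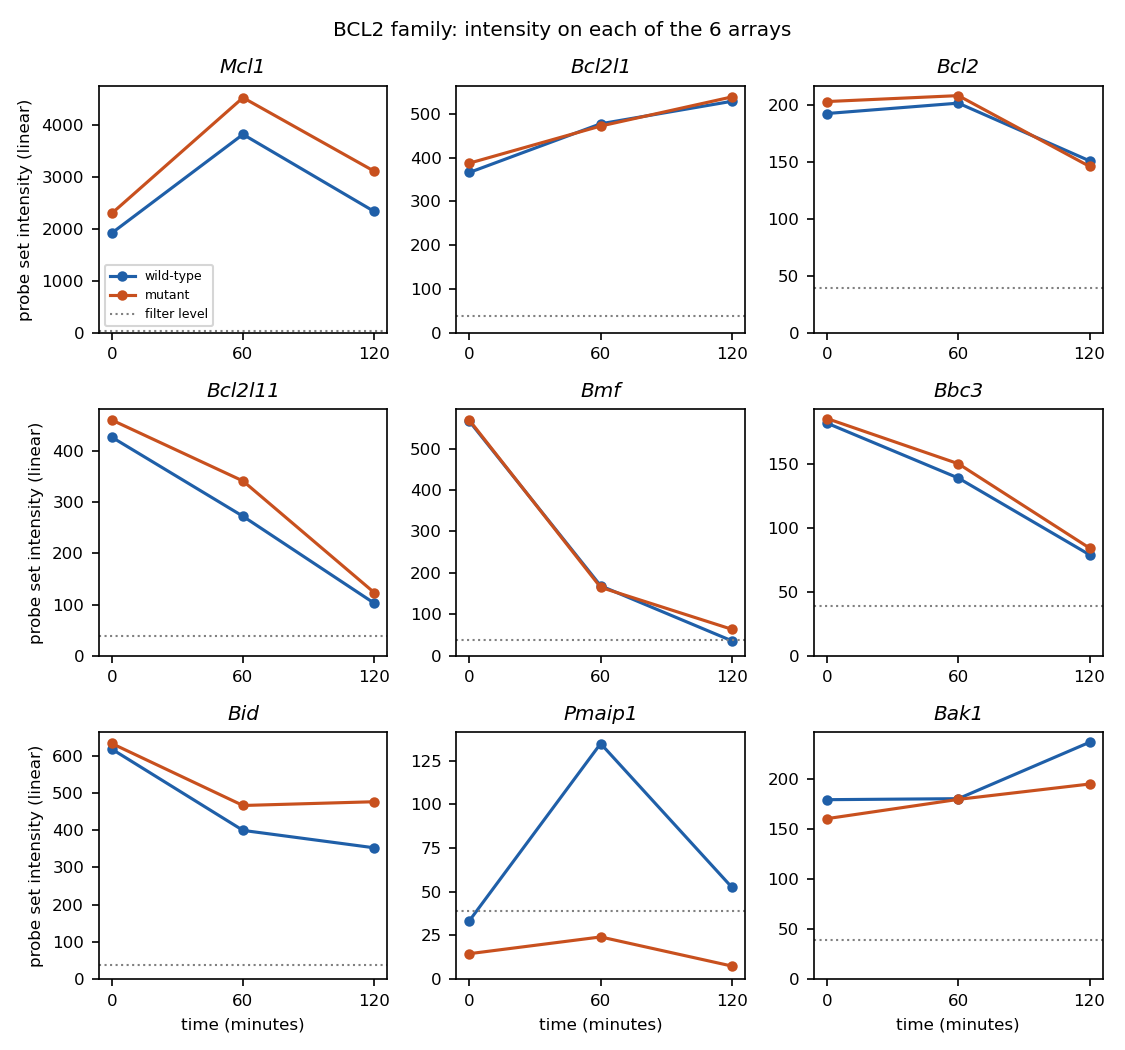
Intensity (linear, y axis from 0) of the brightest probe set of each of the 9 measured genes against time in minutes, 1 point per array, wild-type in blue and mutant in orange, with the filter level of 39.2 dotted. Mcl1 peaked at 60 minutes in both genotypes, Bcl2l11, Bmf and Bbc3 fell at each step, and Pmaip1 was at 52.6 or lower on 5 of the arrays and at 135 on the wild-type array of 60 minutes.

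Among the anti-apoptotic genes, Mcl1 had an intensity of 1922 at 0, 3827 at 60 and 2339 at 120 minutes in wild-type cells. In mutant cells it was 2302, 4536 and 3116. Both genotypes were highest at 60 minutes, with the 120 minute array between the other two. Mcl1 rose 1.97-fold over the first hour (log2 0.98 ± 0.056, SE; n = 2 arrays per time; limma adjusted p = 1.41e-06), a size that ranked 195 among the 10916 genes. It fell over the second hour by 0.62 ± 0.056 on the log2 scale (adjusted p = 3.78e-05), and stood 1.28-fold above its start at 120 minutes (log2 0.36 ± 0.056; adjusted p = 0.000582). The second-hour minus the first-hour difference was -1.60 ± 0.098 (adjusted p = 2.97e-06, a contrast added after the data were seen, in which 10.6% of genes passed, 4.72% higher and 5.85% lower).

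The array holds 6 Mcl1 probe sets, all above the filter level, so the shape can be read in each. All 6 rose at 60 minutes when probe sets were fitted, by 0.50 to 0.98 (log2; 7.34% of probe sets were higher and 8.03% lower). At 120 minutes they disagreed: 2 of 6 were higher than at 0 minutes, and the log2 differences ran from 0.02 to 0.59 (16.4% of probe sets were higher and 24.9% lower). From 60 to 120 minutes 5 of the 6 fell, where 11.4% of probe sets were lower. The other set, at log2 -0.20, did not pass (limma adjusted p = 0.117). Sets of a gene can read different transcript ends, and which part of the transcript each reads was not examined. The net 2 hour rise of Mcl1 is thus a result of some of its probe sets, while the rise at 60 minutes is common to them.

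The Bcl2l1 intensity climbed from 366 to 478 to 529 in wild-type cells and from 388 to 473 to 539 in mutant cells. The arrays of the genotypes lay close together at each time and rose in the same order. The log2 difference was 0.32 ± 0.067 (SE; adjusted p = 0.00874) at 60 and 0.49 ± 0.067 (adjusted p = 0.000257) at 120 minutes, and 0.16 ± 0.067 (adjusted p = 0.109) from 60 to 120. The call at 60 minutes was lost without the wild-type array of 0 minutes (adjusted p = 0.0945) or of 60 minutes (0.0658). The other 3 Bcl2l1 probe sets were below the filter level, at mean intensities of 6.15 to 12.6, and averaging them in gave 0.16 (adjusted p = 0.276) and 0.22 (0.0841).

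Bcl2, the founding member of the family, was lower, not higher, at 120 minutes. Its intensity was 192, 201 and 151 in wild-type and 203, 208 and 146 in mutant cells. The 0 and 60 minute arrays were alike and the 120 minute arrays were the lowest in each genotype. At 60 minutes the log2 difference was 0.05 ± 0.083 (adjusted p = 0.721), and at 120 minutes Bcl2 was lower than at 0 (-0.38 ± 0.083; adjusted p = 0.00406) and than at 60 minutes (-0.43 ± 0.083; adjusted p = 0.00389). Of its 5 probe sets 1 other was above the filter level, and it gave -0.09, -0.24 and -0.15 for these differences without passing. With all sets averaged, most of them dim, the difference from 0 to 120 minutes was -0.11 (adjusted p = 0.376) and that from 60 to 120 minutes turned to 0.028 (adjusted p = 0.876).

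**Figure D2:**
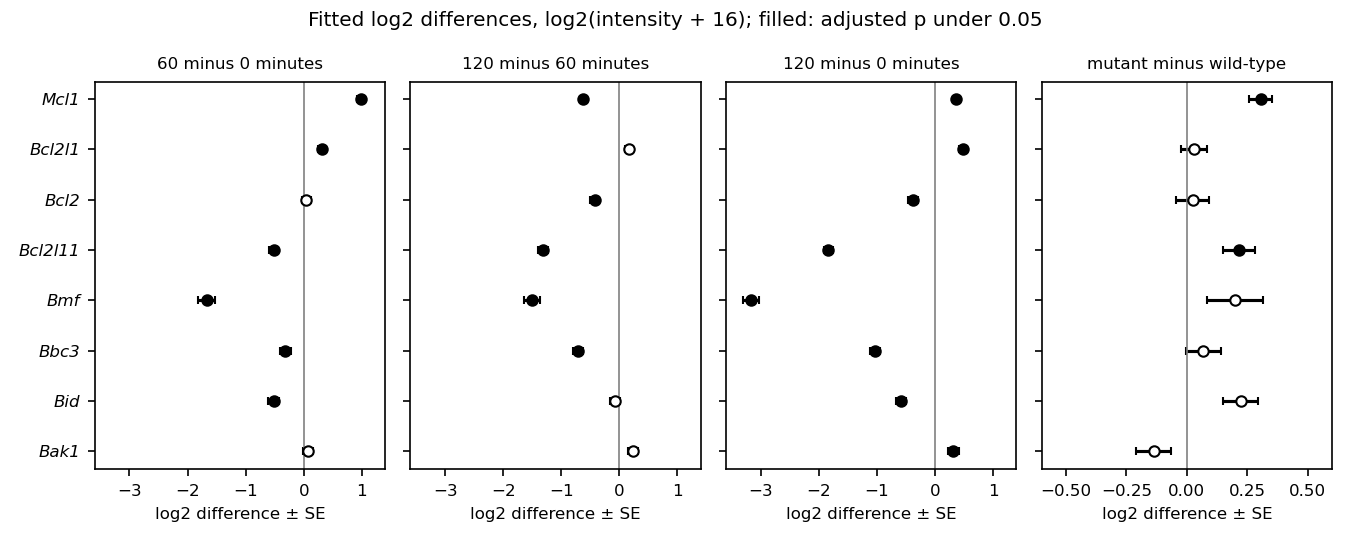
Fitted log2 differences (points) with their SE (bars) for the 8 tested genes in 4 comparisons, on log2(intensity + 16), filled where the limma adjusted p was under 0.05. The first 3 panels share an axis and the genotype panel spans a narrower range. Bmf lies farthest to the left at 120 minutes (-3.17), Mcl1 farthest to the right at 60 minutes (0.98), and the genotype differences run from -0.14 for Bak1 to 0.30 for Mcl1.

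Among the BH3-only genes Bmf had the largest change of the family. Its protein is held on the myosin motor complex until the cell loses attachment or its cytoskeleton is disturbed. In wild-type cells its intensity went from 566 to 169 to 36.3, and in mutant cells from 568 to 165 to 64.1. Each step was a fall in both genotypes, and the genotypes were level until the last time point, at which the wild-type array lay below the filter level.

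Bmf was 3.18-fold lower at 60 minutes (log2 -1.67 ± 0.14, SE; adjusted p = 2.50e-05) and 9.01-fold lower at 120 minutes (-3.17 ± 0.14; adjusted p = 1.41e-07). Of all genes tested that were lower, only 2 had a larger fall at 60 minutes and only 1 at 120 minutes. The fall from 60 to 120 minutes was -1.50 ± 0.14 (adjusted p = 4.97e-05), and the second-hour and first-hour differences did not differ by the test (0.17 ± 0.25; adjusted p = 0.773). Since the last values are dim, the size depends on the offset added before the logarithm: the 120 minute difference was -3.53 with an offset of 1 and -2.48 with 64. The other 2 Bmf sets were below the filter level and gave -0.38 and 0.16 at 120 minutes.

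Bcl2l11, the BIM gene, fell in a different rhythm. Its intensity was 427, 272 and 103 in wild-type and 460, 341 and 123 in mutant cells. The arrays kept the same order in both genotypes, with no overlap between times. The log2 difference was -0.52 ± 0.081 (SE; adjusted p = 0.00175) at 60 and -1.84 ± 0.081 (adjusted p = 1.37e-07) at 120 minutes, a 3.57-fold lower level. The second hour brought -1.32 ± 0.081 (adjusted p = 3.15e-06), and the second-hour minus the first-hour difference was -0.80 ± 0.14 (adjusted p = 0.00490), in the contrast added after the data were seen. With probe sets fitted, 2 of its 3 brighter sets passed in that contrast (4.99% of sets were lower) and the other gave -0.61 (adjusted p = 0.0911). All 3 of these sets passed in each of the 3 time comparisons, at -0.52 to -0.50 at 60 and -1.84 to -1.62 at 120 minutes, and at -1.32 to -1.12 from 60 to 120 (11.4% of probe sets were lower in that last comparison). The 2 dimmer sets gave -0.59 and -1.0 at 120 minutes.

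Bbc3, the PUMA gene and a target of p53, was represented by 1 probe set. Intensities were 182, 139 and 79.1 in wild-type and 186, 150 and 84.4 in mutant cells. The genotypes were close to each other at every time, and each time was lower than the one before. At 60 minutes the difference of -0.31 ± 0.089 (SE; adjusted p = 0.0354) did not hold without the wild-type array of 0 minutes (adjusted p = 0.261) or 60 minutes (0.166), without the mutant array of 0 (0.157) or 60 minutes (0.122), or with no filter on dim genes (0.0640). At 120 minutes Bbc3 was 2.04-fold lower (log2 -1.03 ± 0.089; adjusted p = 1.10e-05), and from 60 to 120 minutes it fell by 0.72 ± 0.089 on the log2 scale (adjusted p = 0.000277).

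Bcl2l11 and Bbc3 were the 2 members whose promoter windows held one of the motifs searched, and those stretches are shown. Bmf, Bid and Bcl2, which also fell by 120 minutes, held none of them in their windows. RefSeq windows of assembly GRCm38.p6, from 250 bases before to 50 after each start site, covered 9 of the 10 genes with 16 windows. Both strands were searched for the FOXO core GTAAACA, the cAMP response element core TGACGTCA, the EGR1 core GCGTGGGCG and the SRF CArG box. The FOXO core was found in 2 of the 16 windows, 1 each of Bcl2l11 and Bbc3, and in 3.65% of all 32851 windows. The others were found in none of the 16, and in 1.79%, 0.612% and 1.63% of all windows. The match lies 227 to 221 bases before the start site in Bcl2l11 and 167 to 161 bases before it in Bbc3, where it is on the opposite strand. No match overlapped another. The capitals below mark the FOXO core, first in the 250 bases before the Bcl2l11 start and then in 30 bases of the Bbc3 window, read along the strand of each gene. A match describes these letters and does not show that a factor binds there.
Bcl2l11, chr2:128125788-128126037, plus strand: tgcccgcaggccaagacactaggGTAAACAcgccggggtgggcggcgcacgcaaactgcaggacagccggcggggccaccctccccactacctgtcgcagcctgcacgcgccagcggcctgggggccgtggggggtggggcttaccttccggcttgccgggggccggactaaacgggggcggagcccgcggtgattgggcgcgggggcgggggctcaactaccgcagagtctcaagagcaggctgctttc
Bbc3, chr7:16310083-16310112, plus strand: tctggcgggttTGTTTACaaacaatggggt

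Bid, which links death receptors to mitochondria after caspase cleavage, fell early, and its second-hour difference did not pass the test. Wild-type intensities were 618, 400 and 353, and mutant ones 633, 466 and 477. The 0 minute arrays were the highest in both genotypes, and from 60 to 120 minutes the wild-type array went down and the mutant array did not. The log2 difference was -0.52 ± 0.089 (SE; adjusted p = 0.00300) at 60, -0.59 ± 0.089 (adjusted p = 0.000453) at 120 against 0, and -0.07 ± 0.089 (adjusted p = 0.642) at 120 against 60 minutes. Its 2 other sets above the filter level gave -0.30 and -0.28 at 60 minutes, neither of which passed, and -0.41 and -0.42 at 120 minutes, of which 1 passed.

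Pmaip1, the NOXA gene, whose protein binds MCL1 in particular, had its 1 probe set below the filter level on average. Its intensity was 33.4, 135 and 52.6 at 0, 60 and 120 minutes in wild-type cells and 14.5, 24.1 and 7.46 in mutant cells. The wild-type array was the brighter at each time, and in both genotypes the 60 minute array was the highest. With no filter the difference was 1.0 ± 0.23 (log2, SE; adjusted p = 0.0251) at 60 against 0 minutes and -0.96 ± 0.23 (adjusted p = 0.0226) at 120 against 60, where 4.06% of the 18194 genes were higher and 7.88% lower. At 120 against 0 minutes it was 0.05 ± 0.23 (adjusted p = 0.925). These estimates average a log2 difference at 60 minutes of 1.61 on the wild-type arrays and 0.39 on the mutant ones, and the mutant values are all below the filter level.

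The effector Bak1 moved little. Its intensity was 179, 180 and 236 in wild-type and 160, 179 and 195 in mutant cells. The 120 minute array was the highest in each genotype. The log2 difference was 0.08 ± 0.090 (SE; adjusted p = 0.582) at 60 and 0.31 ± 0.090 (adjusted p = 0.0159) at 120 minutes. The latter did not hold without the wild-type array of 0 (adjusted p = 0.0671) or 120 minutes (0.139) or the mutant array of 0 minutes (0.0813).

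**Figure D3:**
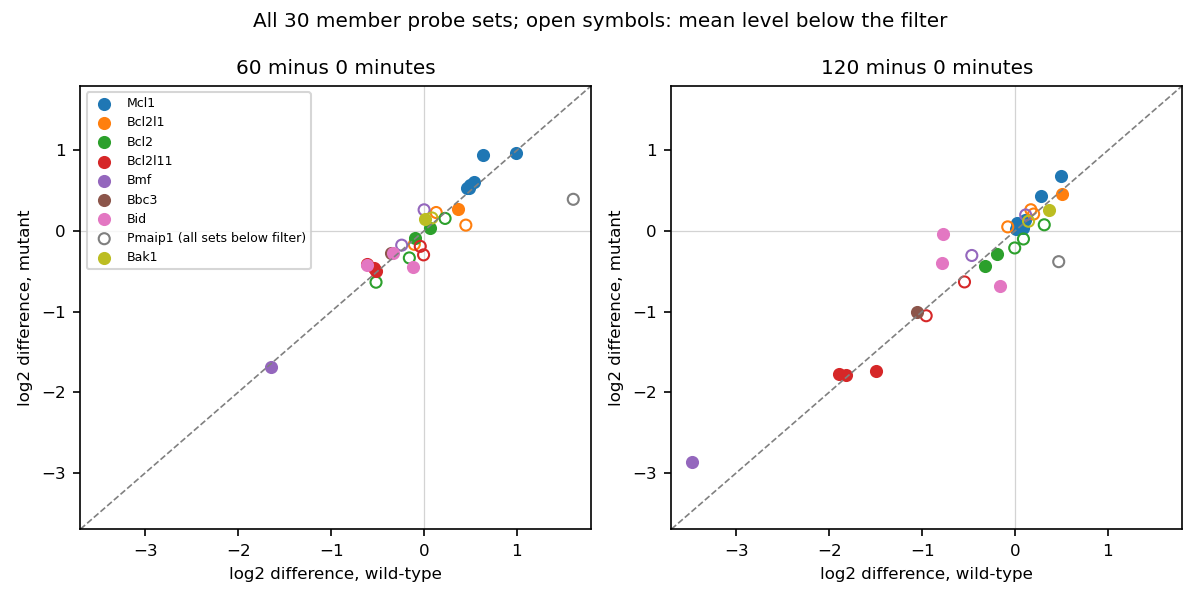
Log2 difference from 0 minutes at 60 (left) and 120 minutes (right) for all 30 probe sets of the 9 genes, wild-type on the x axis and mutant on the y axis, with 1 array per genotype and time. Filled points are the 18 sets above the filter level and open ones the 12 below it, and the dashed line marks equal differences in both genotypes. The 6 Mcl1 sets are positive on both axes at 60 minutes, and the 3 brighter Bcl2l11 sets and Bmf lie at the lower left at 120 minutes.

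Averaged over the 3 times, Mcl1 and Bcl2l11 were higher in mutant cells and the other 6 tested members did not pass, that is 2 of 8 higher and none lower, where 10.4% of all genes tested were higher and 8.92% lower (19.3% in all). The median log2 difference was 0.13 for the 8 members and 0.01 for all genes. The sign was the same at all 3 times for 5 of the 8, and the share among all genes was not counted. Cdh5 and Col1a1, markers of endothelial cells and fibroblasts, also differed by genotype without overlap. Cdh5 was below the filter level on every wild-type array. Pecam1 and Kdr, the other endothelial markers, were below the filter level on average. Of the other fibroblast markers, Col3a1 was higher in mutant cells and Sparc, Col1a2 and Fn1 were lower, each without overlap. The rest of the fibroblast markers overlapped. Col1a2 differed by little, at 10780 to 10940 on the wild-type and 10360 to 10420 on the mutant arrays. The share of all genes without overlap between genotypes was not counted. The part of such markers in the members' differences was not tested. In a fit that did not pair the arrays by time (no block), 0 of 8 passed by limma and 0 had an unadjusted p under 0.05. Of all 10916 genes 89 passed in that fit, in which the time course counts as spread between arrays.

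Mcl1 had a mean intensity of 2696 ± 1001 (SD over the 3 times) in wild-type and 3318 ± 1131 in mutant cells, a spread that holds the time course. The mutant array was the brighter at each time, by log2 0.26 at 0, 0.24 at 60 and 0.41 at 120 minutes. The paired log2 difference was 0.30 ± 0.046 (SE, limma adjusted p = 0.00190), or 1.24-fold. Its call was lost without the block (limma adjusted p = 0.904), a fit in which the time course of Mcl1 counts as spread. Of the 6 Mcl1 probe sets, 5 were called higher when sets were fitted and all 6 were positive, from 0.15 to 0.30 (6.44% of sets were higher). The difference held when any 1 array was left out, with adjusted p from 0.000352 to 0.00424.

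Bcl2l11 was higher in mutant cells by 0.11, 0.31 and 0.23 (log2) at 0, 60 and 120 minutes. Its paired difference of 0.22 ± 0.066 (SE; adjusted p = 0.0483) was just past the threshold. It was lost when any 1 array was left out: without the wild-type array of 0, 60 or 120 minutes the adjusted p was 0.0625, 0.230 and 0.0839, and without the mutant one 0.0636, 0.236 and 0.0850. No set passed when its 3 brighter probe sets were fitted (log2 0.07 to 0.22). Bid, at 0.22 ± 0.073 (adjusted p = 0.0603), lay on the other side of the threshold and passed when either 0 minute array was left out (0.0140 without the wild-type one and 0.0138 without the mutant one). The Bid sets also differed in sign, from -0.13 to 0.22.

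The remaining differences were 0.20 ± 0.12 for Bmf (log2, SE; adjusted p = 0.270), 0.07 ± 0.072 for Bbc3 (0.560), 0.03 ± 0.055 for Bcl2l1 (0.754), 0.02 ± 0.067 for Bcl2 (0.846) and -0.14 ± 0.073 for Bak1 (0.224). A p that misses the threshold does not show that these levels were equal. Pmaip1, below the filter level, was lower in mutant cells at all 3 times, by log2 -0.69, -1.91 and -1.55. Its mean intensity was 73.6 ± 53.9 (SD over the 3 times) in wild-type and 15.4 ± 8.36 in mutant cells. Of its 6 values, 4 were below the filter level, among them every mutant one, so the size of the difference is not fixed by these arrays: in the fit with no filter it was -1.38 ± 0.19 (SE; adjusted p = 0.00188, with 4.75% of 18194 genes lower), -2.08 with an offset of 1 and -0.73 with 64.

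**Figure D4:**
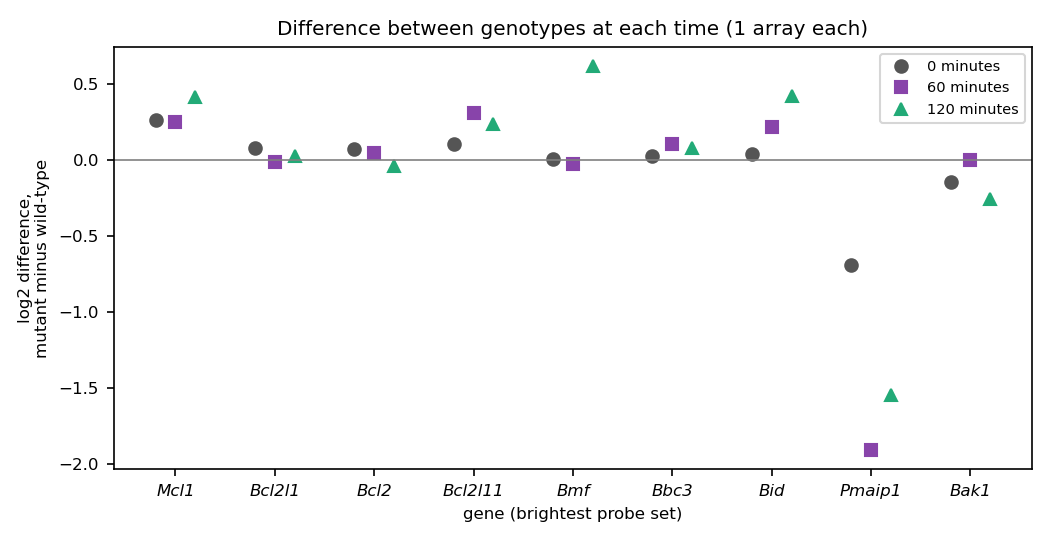
Log2 difference, mutant minus wild-type, at 0 (circles), 60 (squares) and 120 minutes (triangles) for the brightest probe set of the 9 measured genes, each from 1 array per genotype. Mcl1 and Bcl2l11 are above 0 at all 3 times, Pmaip1 is below 0 at all 3, and Bmf is near 0 until 120 minutes, where it is at 0.61.

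Whether the time course differed between genotypes had no replicate check, and the values are given without a test. The brightest probe set of each gene was used for the counts. From 0 to 60 minutes the response differed by less than 1.5-fold between genotypes for all 8 tested members (1.24% of all genes were past it). The response from 0 to 120 minutes passed it for 1, Bmf (1.27% of all genes). The Bmf fall was log2 -3.47 in wild-type and -2.87 in mutant cells, a difference of 0.61. That difference was 0.80 with an offset of 1 and 0.35 with 64, and the wild-type array of 120 minutes was below the filter level. For Bid the 120 minute difference was 0.38 and for the other 6 it lay between -0.11 and 0.15. The other Bid sets above the filter level gave 0.74, which is past 1.5-fold, and -0.51. The Bid sets thus disagreed in size and sign. Pmaip1, outside the tested genes, responded less in mutant cells at 60 minutes, by log2 -1.22 (-1.29 with an offset of 1 and -0.86 with 64).

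The genes with the profiles closest to those of the most variable tested members were found by the root mean square distance between log2 levels, each centred on its own mean over the 6 arrays. Of the 8 tested members, Bmf had the widest range (log2 3.48 between its highest and lowest array) and Bcl2l11 the next (2.0). Pmaip1, outside them, had a range of 2.68. Closest to Bmf were Ccng2, a cyclin gene raised in resting cells, at a distance of 0.12, Ddit4, an inhibitor of mTORC1 signalling, at 0.19, the PI3 kinase inhibitor Pik3ip1 at 0.33, Ypel2 at 0.37 and the stress-response gene Sesn1 at 0.41, against a median of 1.28 over the tested genes. Ccng2, for example, went from an intensity of 1423 to 529 to 145 in wild-type and from 1689 to 569 to 227 in mutant cells.

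Closest to Bcl2l11 was Foxo3, a FOXO transcription factor, at 0.054, with intensities of 522, 370 and 146 in wild-type and 615, 449 and 162 in mutant cells. The lipid phosphatase gene Lpin1 (0.075), Narf (0.083), Rfx5, which encodes a regulator of MHC class II genes (0.091), and Mymx, which encodes a muscle fusion peptide (0.11), came next, against a median of 0.76. All 10 fell at each step in both genotypes, as the 2 members did. These are 6 arrays that share a time course, and the likeness is a description.

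**Figure D5:**
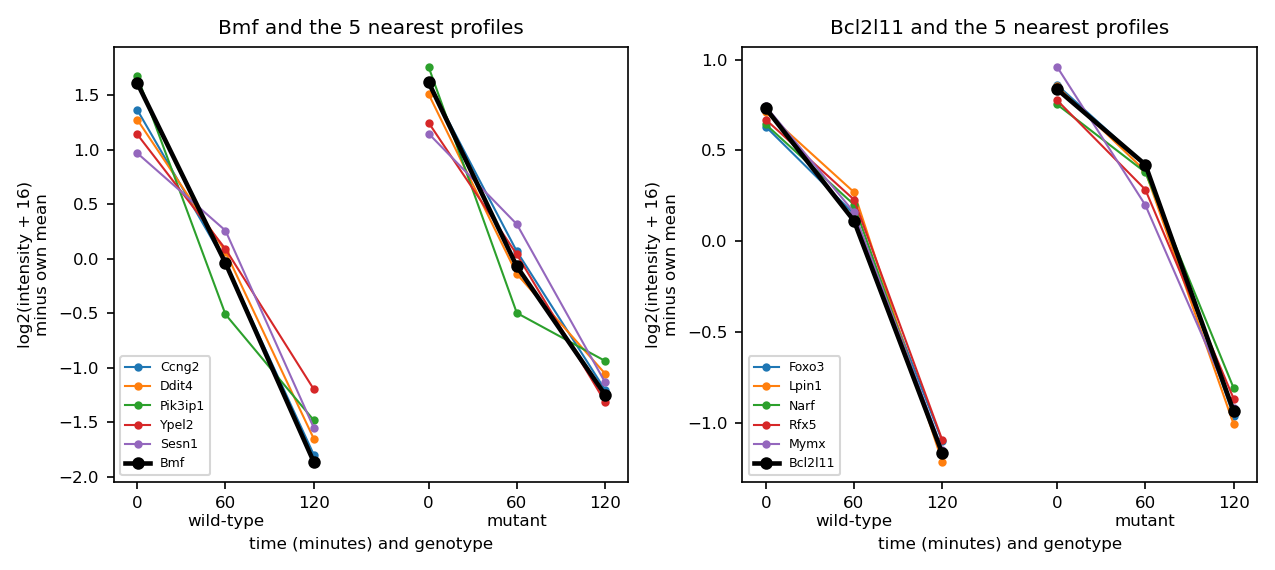
Log2(intensity + 16) minus each gene's own mean over the 6 arrays, against time in minutes for wild-type (left of each panel) and mutant cells (right), for Bmf and Bcl2l11 (thick black) and the 5 nearest genes of each. Lines join arrays of 1 genotype. The Bcl2l11 and Foxo3 lines nearly coincide, with a distance of 0.054.

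Among 18 other genes of the family and its relatives, 11 were tested. At 60 minutes 1 rose and none fell (18% of all genes tested passed), at 120 minutes 1 rose and 3 fell (47% of all genes), and from 60 to 120 minutes 1 rose and 1 fell (25.1%). These shares of all genes, with 19.3% between genotypes, also apply to the lists that follow. The gene that rose was Bok, an effector-like relative of Bak1, at log2 1.03 ± 0.072 (SE; adjusted p = 5.93e-06) at 60 and 1.57 ± 0.072 (1.67e-07) at 120 minutes. Its intensity was 220, 475 and 731 in wild-type and 274, 570 and 795 in mutant cells, a climb at each step in both. The genes that fell by 120 minutes were Bnip3, a mitophagy receptor (-0.42 ± 0.059; adjusted p = 0.000286), and the BH3-only genes Bad (-0.28 ± 0.073; 0.0108) and Hrk (-0.25 ± 0.077; 0.0216). In mutant cells Bnip3 was higher by 0.71 ± 0.048 (adjusted p = 1.31e-05) and Bok by 0.22 ± 0.059 (0.0266). The list's median log2 difference was -0.12 at 120 minutes, and that of all genes -0.09.

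Of 15 tested genes of the apoptosome, the caspases and their inhibitors, 3 fell and none rose at 60 minutes, against 18% of all genes called, and 7 fell and 1 rose at 120 minutes, close to the 47% of all genes. Casp2, an initiator caspase, differed by -1.13 ± 0.082 (log2, SE; adjusted p = 7.75e-06) at 60 and -1.10 ± 0.082 (4.31e-06) at 120 minutes. The inhibitor of apoptosis genes Birc2, Birc3 and Birc5 (survivin, which also acts in mitosis) differed by -1.02 ± 0.075, -0.74 ± 0.082 and -0.59 ± 0.072 at 120 minutes. Xiap, at -0.31, had another set at 0.57, so its sets disagree. Cycs, the cytochrome c gene, was the 1 that rose (0.30 ± 0.064; adjusted p = 0.00392). From 60 to 120 minutes 4 fell and none rose (25.1% of all genes passed), with Birc3 (-0.65) and Birc2 (-0.59) at their head. Of the 15, 3 were higher in mutant cells and none lower: Apaf1, the scaffold of the apoptosome (0.39 ± 0.064; adjusted p = 0.00311), Cycs (0.30 ± 0.053; 0.00412) and Casp6 (0.29 ± 0.056; 0.00651). The median difference between genotypes was 0.04 for the list and 0.01 for all genes.

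In the death receptor pathway 2 of 8 tested genes rose at 60 minutes and none fell, and at 120 minutes 2 rose and 1 fell, where 18% and 47% of all genes passed. Tnfrsf12a, the receptor for TWEAK, rose 5.65-fold (log2 2.50 ± 0.078, SE; adjusted p = 1.55e-08) and Fas by 0.69 ± 0.14 (0.00724) in the first hour, and the adaptor gene Traf2 was lower at 120 minutes (-0.33 ± 0.11; 0.0356). Tnfrsf12a was also the 1 that rose from 60 to 120 minutes (0.37), when none fell, and Tnfrsf1a, a TNF receptor, the 1 lower in mutant cells (-0.21 ± 0.050; 0.0199), when none was higher. Of 14 tested genes for the turnover and anchoring of MCL1 and BH3-only proteins, 2 rose at 60 minutes and none fell: Pim1, a kinase that phosphorylates BAD (1.39 ± 0.12; adjusted p = 3.57e-05), and Ier3, an immediate early gene whose protein binds MCL1 (1.35 ± 0.10; 1.18e-05). Another Pim1 set gave 0.59. At 120 minutes 5 of the 14 rose and 3 fell (47% of all genes passed), among them Fbxw7, a subunit of a ubiquitin ligase of MCL1 (0.35 ± 0.070), and Pim3 (-0.93 ± 0.074), and from 60 to 120 minutes 1 rose and 4 fell (25.1% of all genes). Dynll1, a dynein light chain that binds BIM, was the 1 higher in mutant cells (0.27 ± 0.057; 0.0104), none was lower, and its other sets gave 0.13 and -0.06.

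Of 16 tested transcription factors known to act on BCL2 family genes, 7 rose and 2 fell at 60 minutes, and 7 rose and 6 fell at 120 minutes. Of all genes, 7.34% were higher and 10.7% lower at 60 minutes and 16.2% and 30.8% at 120 minutes. Srf (log2 2.39 ± 0.077, SE) and Myc (2.02 ± 0.067) led the rise in the first hour. Foxo3 was lower by 120 minutes (-1.78 ± 0.073; adjusted p = 8.32e-08), as were Ddit3, the stress factor CHOP (-1.54 ± 0.056; 4.16e-08), and Foxo1 (-0.46 ± 0.085; 0.00159). Foxo4, the other FOXO gene tested in the list, did not pass at 120 minutes (-0.20 ± 0.097, limma adjusted p = 0.128). From 60 to 120 minutes 2 rose and 6 fell (10.2% and 15% of all genes), with Egr1 (-2.13) and Myc (-1.35) at their head. Between genotypes 2 were higher in mutant cells, Foxo3 (0.21 ± 0.060; adjusted p = 0.0336) and Ddit3 (0.16 ± 0.046; 0.0335, with another set at -0.08), and 2 lower, Jun (-0.25 ± 0.053; 0.0107) and Atf4 (-0.20 ± 0.054; 0.0308).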

How the data were processed

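The deposited values are an intensity per probe set on a linear scale, which the authors produced by PLIER in version 1.14.3.1 of Affymetrix Power Tools, per the submitters' processing notes; background correction and scaling between arrays are not given in the sources used here. Probe sets were named from GEO's platform annotation, with symbols updated by gene identifier through RefSeq: 34958 of 45101 had 1 gene, 932 several and 9211 none. Here, log2(intensity + 16) was used without further scaling, the brightest probe set on average stood for each gene, and genes under the 40th percentile of mean level were left out.

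All genes were fitted with limma 3.58.1 (R 4.3.3) with genotype and time as additive terms and an eBayes trend (2 residual and 7.77 prior degrees of freedom). Tests were two-sided, with Benjamini-Hochberg adjustment over all genes tested in each contrast and a threshold of 0.05; where several values follow in parentheses or in a list, unnamed ones are these adjusted p-values. Time point pairs the arrays of the genotypes, from the labels; deviations from each genotype's mean correlated across genes at 0.911, 0.756 and 0.871 for arrays of the same time, which holds the shared time response. Another set of a listed gene is stated where its sign was opposite or its difference much smaller. Simulated data served to test the fit. The members and gene lists were chosen with earlier results of these data known. Every member was named. Of each list, up to 4 tested genes per contrast were named, called ones first and then by size. Cycs, Xiap, Foxo1 and Foxo4 at 120 minutes were added after their values were seen. For likeness, the 5 nearest genes of the 2 most variable tested members were named. The contrast of second against first hour was added after the data were seen. Alternatives changed the offset, filter, scaling, probe sets, shrinkage, terms of the fit and arrays.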

Additional observations from a re-analysis of the deposited data

Results flagged for a closer look

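2 members were picked out because their brightest probe set moved in opposite directions in the 2 genotypes; with 1 array per genotype and time neither difference was tested. Pmaip1 differed from 0 to 120 minutes by log2 0.47 in wild-type and -0.38 in mutant cells, a mutant minus wild-type response of -0.85. Both mutant values and the wild-type value of 0 minutes were below the filter level. That response difference was -1.51 with an offset of 1 and -0.39 with 64. Bid differed from 60 to 120 minutes by -0.17 in wild-type and 0.03 in mutant cells, a response difference of 0.20. Another Bid set above the filter level gave -0.44 in wild-type and 0.23 in mutant cells. A further one gave -0.04 and -0.23, a fall in both genotypes. No group was large enough for a check of single arrays that stand apart.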

How the results depend on the processing

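The count of members called at 60 against 0 minutes was 6, and 2 with the genotype term left out (590 of all 10916 genes passed in that fit). At 120 against 0 minutes it was 8, and 5 when every set of a gene was averaged (4546 of 10916 genes passed). From 60 to 120 minutes it was 5, also whichever array was left out. Between genotypes the count of 2 was 1 with an offset of 64, with probe sets fitted and without the shrinkage trend. Without 1 array it was 1 to 2. It was 0 with the time point left out of the fit, as given with its unadjusted count in the report. The pairing by time is from the labels. The genotype count was also 2 when all sets of a gene were averaged, but of Mcl1 (higher) and Pmaip1 (lower). Without 1 array the counts were 4 to 6 at 60 and 7 to 8 at 120 minutes. A lone array of a time is then assumed to vary like the others, and either omission of a time gives the same genotype estimate. Signs turned for Bcl2 with all sets averaged, at 120 against 60 minutes, where the value of -0.43 had passed (0.028), and at 60 against 0 minutes (-0.134) and between genotypes (-0.062), where it had not. They also turned for values that had not passed, over the omissions of 1 array, Bak1 at 60 minutes (-0.021 to 0.18), Bid from 60 to 120 minutes (-0.22 to 0.075) and Bmf between genotypes (-0.012 to 0.31). The cause was not tested. Signal near the filter level limits Pmaip1 and the 120 minute values of Bmf.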
